A study of Glycine max with 2 samples.

Results

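The 1000 chromatin peaks described here were those most open in SCS1-positive nuclei of the soybean seed. They were taken from the 119743 peaks called over 1 library of accessible chromatin (snATAC), of which 77493 (64.7%) held at least 200 fragments in all nuclei and could be chosen. SCS1-positive nuclei had at least 4 UMIs (unique molecular identifiers, which count captured RNA molecules) of SCS1, Glyma.06G022600, and at least 20 per 10000 UMIs of the nucleus. By this gate 690 of 8636 nuclei were SCS1-positive. For the choice, the nuclei were split by the place of their barcode in the deposited list. In the odd-numbered nuclei (372 SCS1-positive, 3946 other) fragments were summed per peak and scaled to fragments per 1000000 peak fragments (FPM), 1 was added to both groups, and the 1000 peaks with the highest ratio of SCS1-positive over other nuclei were taken. The values below come from the even-numbered nuclei (318 SCS1-positive, 4000 other) unless stated, which took no part in the ranking, although the minimum of 200 fragments was counted in all nuclei.

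Nuclei came from pooled, untreated cotyledon-stage seeds of Glycine max cv Williams 82 grown in a greenhouse. A Multiome assay, for which the labels give 10000 nuclei loaded, gave 1 snRNA library and 1 snATAC library with shared barcodes. Both groups of nuclei therefore share genotype, stage, seed pool and library, and were told apart by SCS1 RNA alone. A single library per assay leaves nothing to measure the spread between seeds or libraries, and p-values were not computed. Intervals are exact 95% intervals and cover counting error only.

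Open chromatin was read from the transposase Tn5, which inserts adapters where DNA is not covered by nucleosomes, so that regulatory regions in use in a cell collect more fragments than closed ones. SCS1 encodes a subtilisin-like serine protease by its best Arabidopsis match, and the study used its RNA, with that of the sugar transporter gene SWEET10b, as a mark of thick-walled parenchyma. This tissue forms the inner layers of the outer integument of the seed coat, the maternal tissue through which assimilates pass on their way to the embryo. In the study, RNAs of both genes mapped mainly to a cluster that it proposed as thick-walled parenchyma and to another whose nature it left unclear. The peaks and genes of this series are placed on the assembly Gmax_275_Wm82.a2.v1. No sequence or gene annotation of that assembly was used here, so each peak is given by its coordinates alone, counted from 1, with no gene, exon or intron and no sequence.

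The libraries held 39881831 UMIs and 113501985 fragments in nuclei, with medians of 2945.5 UMIs and 7840 fragments per nucleus (range 129 to 294125 fragments). Even-numbered SCS1-positive nuclei were somewhat deeper, with medians of 10083 fragments and 3456.5 UMIs against 7740 fragments and 2908.5 UMIs in other nuclei. The part of the fragments that fell in peaks was nearly the same, at medians of 83.6% and 83.9%.

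The RNA of the same nuclei was checked against markers of the seed coat and of the other seed tissues. SCS1, which defined the gate, stood at 7563 UMIs per 1000000 UMIs (CPM) in SCS1-positive nuclei and 66.9 CPM in other nuclei, where 11.1% of nuclei had at least 1 SCS1 UMI. SWEET10b was 3.20-fold higher (272.6 against 85.3 CPM) and was detected in 42.8% of SCS1-positive nuclei and 21.1% of other nuclei. SCB1, a seed coat protein with a BURP domain, was 4.62-fold higher, with UMIs in 94.7% and 52.8% of nuclei. UMIs of these genes were also found in nuclei of another tissue. In nuclei gated by embryo markers, with a median of 3466 UMIs, UMIs of SCS1, SWEET10b and SCB1 were found in 9.14%, 15.4% and 32.6% of nuclei, at 57.2, 54.6 and 585.3 CPM. Whether these were background, doublets or RNA of the nuclei themselves was not tested. SCS1 UMIs were found in 4.49% of nuclei gated by TT8, 10.5% of those gated by endosperm markers, 16.9% of those gated by SWEET13 and 17.4% of those that passed no gate, so that the 11.1% is a mixture. Markers of other tissues were mostly lower. The TT8 genes Glyma.02G147800 and Glyma.10G026000, homologs of an Arabidopsis regulator of seed coat flavonoids, stood at 0.152 and 0.145 of their level in other nuclei, and BAN (Glyma.08G062000), an anthocyanidin reductase gene, stood at 0.131. All 4 embryo markers were below their level in other nuclei, 3 of them by at least 2-fold, on 2 to 25 UMIs each in SCS1-positive nuclei. For Glyma.18G220100 (3 UMIs, 0.0714 to 1.06) and Glyma.04G238400 (2 UMIs, 0.0835 to 2.82) the interval of the fold included no difference. All 4 endosperm markers were also below their level in other nuclei (3 by at least 2-fold). The exception was a pair of SWEET13 genes used as phloem markers, Glyma.05G202700 and Glyma.08G010000, at 2.18-fold and 2.58-fold higher in CPM, although their UMIs occurred in 12.6% and 11.6% of SCS1-positive nuclei against 12.1% and 11.5% of other nuclei. The third vascular marker, a glycine-rich protein gene (Glyma.01G018100), had 0 UMIs in SCS1-positive nuclei, which allows up to 1.88 CPM, and 43 UMIs or 2.34 CPM in other nuclei. The exact interval of its fold was 0 to 1.03, so that a difference was not detectable at this depth.

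Gene groups drawn from the study's marker sheet for the thick-walled parenchyma cluster were also higher, but that sheet was made from these nuclei and is not independent evidence of direction. Of all 34070 genes with at least 20 UMIs, 5.77% were at least 2-fold higher in SCS1-positive nuclei and 18.2% at least 2-fold lower, with a median fold of 0.876. All 22 cell wall and glycosidase genes were at least 2-fold higher (median 4.75), led by Glyma.19G041700, similar to Arabidopsis TRICHOME BIREFRINGENCE-LIKE 19, at 582.1 against 36.2 CPM. All 13 other proteases that could be measured were at least 2-fold higher (median 5.17), with the serine carboxypeptidase-like gene Glyma.09G249500 at 2064 against 145.1 CPM. Glyma.04G022500, a subtilisin gene with the same best Arabidopsis match as SCS1, had the highest fold of that group (36.2), a value that is uncertain where reads of close paralogs cannot be told apart. Of 28 transporter genes, 27 were at least 2-fold higher (median 5.20) and Glyma.12G133700 was 1.57-fold higher (1.43 to 1.72). They included the peptide transporter gene Glyma.07G145900 at 222 against 13.02 CPM. All 10 transcription factor genes (median 4.44) and 13 of 14 genes of carbon and nitrogen metabolism (median 3.75) passed the same limit, and the AGAMOUS-like MADS-box gene Glyma.08G120600 stood at 485.6 against 28.7 CPM.

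In the even-numbered nuclei the 1000 peaks remained more open in SCS1-positive nuclei. Together they held 1.40% of the peak fragments of SCS1-positive nuclei (52766 of 3765520; interval 1.39% to 1.41%) and 0.566% of those of other nuclei (232841 of 41127156; 0.564% to 0.568%), a 2.48-fold difference (2.45 to 2.50). In the odd-numbered nuclei, which chose them, the shares were 1.53% and 0.568%. The median peak stood at 10.6 FPM in SCS1-positive nuclei and 4.23 FPM in other nuclei.

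Peak by peak, with 1 added to both sides as in the choice, the median ratio in even-numbered nuclei was 2.22, with quartiles of 1.91 and 2.59 and a range of 0.961 to 5.62. Over all 77493 peaks that could be chosen the median was 0.962. The ratio reached 2 in 674 of the 1000 peaks (67.4%), against a background of 2.04% of all peaks that could be chosen. It was above 1 in 999 peaks, against a background of 44.7%. A ratio of at least 3 was seen in 103 peaks, against a background of 0.15%, and 65 were below 1.5, against a background of 91.6%. The median ratio in the odd-numbered nuclei, 2.38, is a value of the choice itself.

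**Figure D1:**
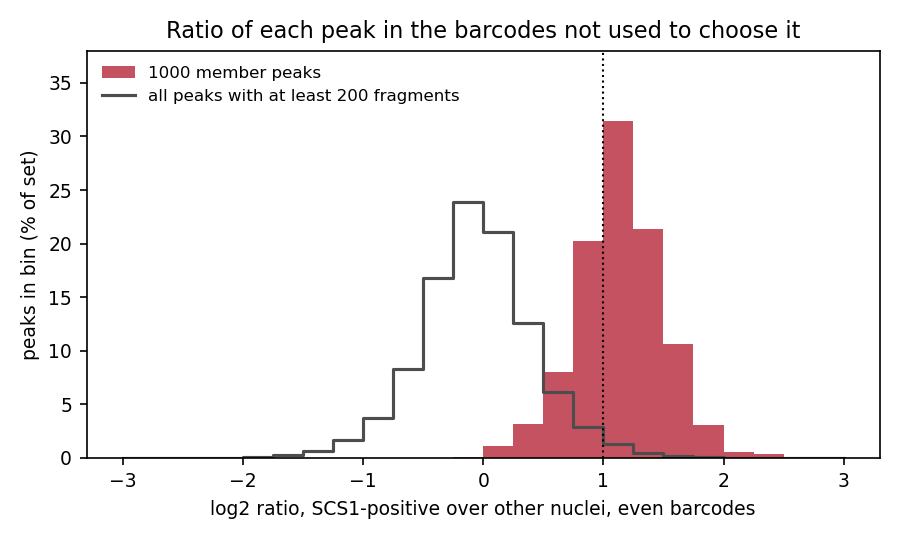
Distribution of the log2 ratio of SCS1-positive over other nuclei in even-numbered barcodes, as the percentage of each set in bins of 0.25; filled bars are the 1000 chosen peaks, the line is all peaks with at least 200 fragments, and the dotted line marks a ratio of 2. The chosen peaks center on a ratio of 2.22, while all peaks center on 0.962.

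Rank in the odd-numbered nuclei carried over to the even-numbered ones. The median even ratio was 2.86 for ranks 1 to 100, 2.52 for ranks 101 to 250, 2.31 for ranks 251 to 500 and 2.02 for ranks 501 to 1000. Of these ranges, 91 of 100, 131 of 150, 189 of 250 and 263 of 500 peaks reached a ratio of 2. There was no break at the limit of the set. The last peaks inside had odd ratios of 2.11045 (chr5:40400014-40410818) and 2.11014 (chr3:19343014-19344243), with even ratios of 2.21 and 2.79, and the first outside had 2.10963 (chr9:2672993-2674599) and 2.10962 (chr2:44562218-44563327), with even ratios of 2.21 and 1.45. The next 1000 peaks below the limit had a median even ratio of 1.82, and 327 of them reached 2.

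The 10 highest-ranked peaks each held more FPM in SCS1-positive nuclei, with folds, computed with nothing added, between 2.89 and 5.67. Peaks are numbered by this rank. The first, P0001 (chr4:45366849-45367997), held 53 fragments in 318 SCS1-positive nuclei and 112 in 4000 other nuclei, or 14.1 against 2.72 FPM, a 5.17-fold difference (3.66 to 7.23). It was touched by a fragment in 13.2% of SCS1-positive nuclei and 2.58% of other nuclei. P0004 (chr6:1686690-1689692) was the most open of the 10, with 104 and 202 fragments, or 27.6 against 4.91 FPM (5.62-fold, 4.40 to 7.16), and was touched in 21.7% and 4.50% of nuclei.

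Small and sparse peaks were also among the 10. P0009 (chr3:3929986-3930685), 700 bases wide, had the highest fold of them, 5.67 (3.77 to 8.42), from 40 and 77 fragments, or 10.6 against 1.87 FPM. P0007 (chr8:42560673-42561359) held 32 and 66 fragments, or 8.50 against 1.605 FPM (5.30-fold, 3.36 to 8.20). Their intervals span more than a factor of 2, so the order between them is not set by these counts. Among the 10, the intervals of P0004 (4.40 to 7.16) and P0003 (2.00 to 4.10) did not overlap. On chromosome 13, P0008 (chr13:23598005-23599599) and P0010 (chr13:23610591-23611394) lay close to each other, with 14.9 against 3.23 and 10.4 against 2.04 FPM, or 4.60-fold and 5.07-fold. Both were thus raised by a similar amount.

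The other peaks of the 10 ranged lower. P0005 (chr20:34122772-34123593) stood at 11.4 against 2.63 FPM (4.35-fold), P0002 (chr6:46625388-46626769) at 13.5 against 3.43 (3.95-fold) and P0006 (chr19:2328831-2329755) at 8.23 against 2.16 (3.80-fold). P0003 (chr10:40254599-40255460) had the lowest fold of the 10, 2.89 (2.00 to 4.10), from 41 and 155 fragments.

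**Figure D2:**
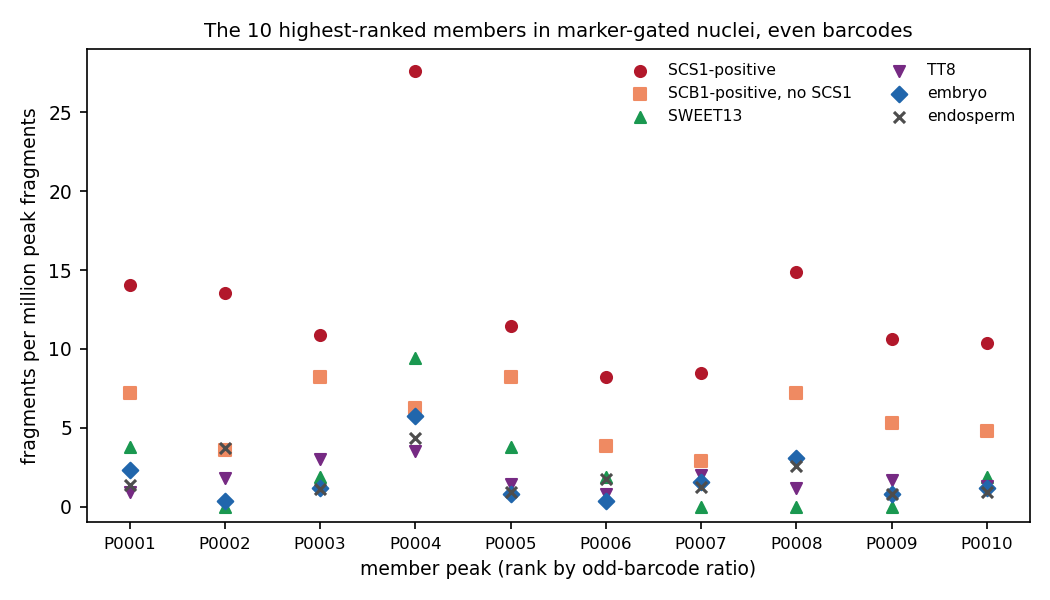
Fragments per 1000000 peak fragments (FPM) (vertical axis) of the 10 highest-ranked peaks in even-numbered nuclei. Symbols give SCS1-positive nuclei, SCB1-positive nuclei without SCS1 UMIs, and nuclei gated by markers of other tissues. SCS1-positive nuclei are highest at each of the 10 peaks, and P0004 reaches 27.6 FPM.

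Over the whole set the fold of single peaks ran between 0.950 and 6.96 (median 2.49), on a median of 40 fragments in SCS1-positive nuclei (10 to 382) and 174 in other nuclei (62 to 1865). A fragment was found in a median of 11.01% of SCS1-positive nuclei (2.83% to 52.2% over the peaks) and 3.91% of other nuclei (1.48% to 27.4%). The highest fold was at P0021 (chr1:12449718-12450748), with 51 and 80 fragments or 13.5 against 1.95 FPM (6.96-fold, 4.80 to 10.0). P0015 (chr1:9015366-9017487) followed with 107 and 174 fragments, or 28.4 against 4.23 FPM (6.72-fold, 5.23 to 8.59). Both peaks were found outside the 10 named by rank and were singled out after their values were seen.

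The most open peak was P0999 (chr5:40400014-40410818), 10805 bases wide, at 101.4 against 45.3 FPM (2.24-fold, 2.00 to 2.50), with a fragment in 52.2% of SCS1-positive nuclei and 27.4% of other nuclei. It ranked next to last, so that height and contrast were not the same property. The single peak whose ratio was not above 1 was P0933 (chr6:8337311-8338687), with 12 and 138 fragments, or 3.19 against 3.36 FPM. Its fold of 0.950 had an interval of 0.479 to 1.71 and a difference was not detectable at this depth.

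The ratio varied little with the strength of the peak. In groups of 250 peaks by the level in other odd-numbered nuclei, the median even ratio was 2.29, 2.15, 2.23 and 2.24 for the lowest to the highest group. By width, such groups gave 2.18 for peaks of 504 to 899 bases, 2.22, 2.24, and 2.23 for peaks of 1953 to 10805 bases. The pooled fold, to which nothing is added, ran between 2.85 in the lowest group by level and 2.36 in the highest.

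The comparison with all other nuclei mixes tissues, so the peaks were then read in nuclei gated by RNA markers. Each gate asked for at least 4 UMIs of its markers and 10 per 10000 UMIs (2 UMIs for the embryo gate, and 4 UMIs and 20 per 10000 for SCB1), and 436 nuclei outside the SCS1 gate that passed more than 1 of the other gates entered none. All SCS1-positive nuclei were kept, of which 41 even-numbered ones also passed an embryo, endosperm, TT8 or SWEET13 gate. The share of peak fragments in the 1000 peaks was 1.40% in SCS1-positive nuclei, 0.953% (0.943% to 0.962%) in 552 nuclei positive for SCB1 and with 0 UMIs of SCS1, 0.528% in 59 SWEET13-positive nuclei, 0.415% in 459 endosperm-gated nuclei, 0.388% in 175 embryo-gated nuclei and 0.385% in 579 TT8-positive nuclei. The SCB1-positive nuclei without SCS1 UMIs were thus between SCS1-positive nuclei and the rest, and the 1943 nuclei of no gate held 0.674%.

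**Figure D3:**
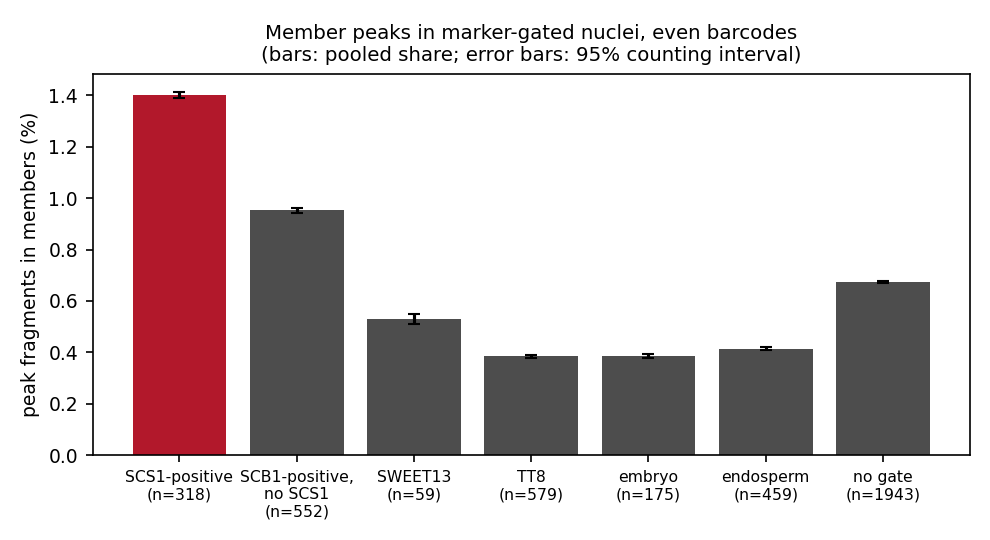
Percentage of peak fragments that fell in the 1000 peaks (vertical axis) in even-numbered nuclei, pooled within each marker gate, with exact 95% counting intervals and the number of nuclei. SCS1-positive nuclei stand at 1.40%, SCB1-positive nuclei without SCS1 UMIs at 0.953%, and the embryo, endosperm and TT8 gates between 0.385% and 0.415%.

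Against TT8-positive nuclei the pooled fold was 3.64 (3.59 to 3.70), against embryo-gated nuclei 3.62 (3.54 to 3.69), against endosperm-gated nuclei 3.38 (3.33 to 3.43) and against SWEET13-positive nuclei 2.65 (2.55 to 2.76). A ratio of at least 2 was reached by 864 of the 1000 peaks against TT8-positive nuclei (background 7.92%), 848 against embryo-gated nuclei (background 10.7%), 817 against endosperm-gated nuclei (background 8.92%) and 686 against SWEET13-positive nuclei (background 21.3%). Against the 1943 nuclei of no gate the pooled fold was 2.08 (2.06 to 2.10), and 458 peaks reached 2 (background 1.33%). The background was high for the SWEET13 gate, which held 530193 peak fragments against 3765520 in SCS1-positive nuclei. The gates differed in depth, with median fragments per nucleus of 10083 in SCS1-positive nuclei, 5276 in SCB1-positive, 7066 in SWEET13-positive, 9085 in TT8-positive, 14070 in embryo-gated and 17174 in endosperm-gated nuclei.

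Of the 6 gates, SCS1-positive nuclei had the highest level at 850 of the 1000 peaks, against 14.1% of all peaks that could be chosen. SCB1-positive nuclei were highest at 81 peaks, close to their share of 7.93% over all peaks that could be chosen. The other gates were highest less often than over all those peaks: SWEET13-positive nuclei at 57 (21.9% of all), endosperm-gated at 9 (24.9%), embryo-gated at 2 (18.6%) and TT8-positive at 1 (12.6%). Where SCS1-positive nuclei were highest, SCB1-positive nuclei came second at 660 of the 850 peaks. The matching count over all peaks that could be chosen was not computed.

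By pooled share, SCB1-positive nuclei without SCS1 UMIs were the nearest to SCS1-positive nuclei among those gated. The pooled fold between them was 1.47 (1.45 to 1.49), and the median ratio was 1.42, against 1.02 over all peaks that could be chosen. The ratio reached 2 at 129 peaks, against a background of 1.25%. SWEET10b UMIs were found in 34.1% of these SCB1-positive nuclei, at 177.9 CPM. Both gates were SCB1-positive for the most part: of the 318 SCS1-positive nuclei, 301 had at least 1 SCB1 UMI. The pooled share in the set was 1.40% (1.39% to 1.41%) in these 301 and 1.40% (1.35% to 1.45%) in the 17 with none. These intervals leave out the spread between nuclei, so 17 nuclei cannot show that the shares are equal.

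The odd-numbered nuclei were used to divide the set by its level in SCB1-positive nuclei. At 489 peaks the level in SCB1-positive nuclei without SCS1 UMIs was at least 2-fold that of the TT8, embryo and endosperm gates pooled, and at 511 it was not. How many of all peaks that could be chosen pass this limit was not computed, so the count of 489 has no background. In even-numbered nuclei the 489 peaks were 4.20-fold higher in SCS1-positive nuclei and 3.06-fold higher in SCB1-positive nuclei than in those 3 gates, and 1.37-fold higher in SCS1-positive than in SCB1-positive nuclei. The 511 peaks were 2.95-fold and 1.83-fold higher than in the 3 gates, and 1.61-fold (1.58 to 1.65) higher in SCS1-positive than in SCB1-positive nuclei.

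When the peaks were ordered by their odd ratio of SCS1-positive over SCB1-positive nuclei, the upper 100 had a pooled even fold of 2.03 (1.93 to 2.15) and the lower 100 one of 1.19 (1.15 to 1.24). Both sets had nearly the same median ratio over all other nuclei, 2.24 and 2.25. Among the 5 with the highest odd ratio, P0079 (chr12:3237161-3239283) stood at 18.3 FPM in SCS1-positive nuclei and 5.06 in SCB1-positive nuclei (3.62-fold, 2.20 to 6.22), and P0508 (chr4:1735587-1736977) at 8.23 and 2.17 (3.80-fold, 1.77 to 9.07). P0037 (chr6:1909984-1910919), also among these 5, stood at 6.11 and 5.06, and its fold of 1.21 had an interval of 0.639 to 2.30, so that a difference was not detectable at this depth. At the other end P0930 (chr4:6839338-6840426) stood at 11.2 and 11.3 (fold 0.986, 0.634 to 1.53) and P0655 (chr1:44422597-44425123) at 14.1 and 16.4 (0.860, 0.589 to 1.25).

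A value of 0 for SCS1 in the deposited RNA can be a stored entry of 0, taken here as one that the background correction emptied, or no entry. Of the 552 SCB1-positive nuclei without SCS1 UMIs, 345 (62.5%) had a stored 0 and 207 had no entry. Their shares of peak fragments in the set were 0.914% (0.904% to 0.925%) and 1.07% (1.05% to 1.09%), with median fragments of 6885 and 4212. Nuclei with a stored 0 were therefore not the ones nearer to SCS1-positive nuclei. Over all 3556 even-numbered nuclei with 0 SCS1 UMIs, the shares were 0.541% with a stored 0 and 0.547% with no entry.

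The pooled share of fragments in the set was higher in each bin of higher SCS1 level. It was 0.543% in 3556 nuclei with 0 SCS1 UMIs, 0.829% (0.820% to 0.839%) in 419 nuclei above 0 and up to 20 per 10000, 1.32% (1.30% to 1.33%) in 138 nuclei between 20 and 50, 1.37% (1.35% to 1.39%) in 137 between 50 and 100, and 1.56% (1.54% to 1.59%) in 68 above 100. Most of the difference lay below 50 per 10000, and each step of the pooled share was larger than its counting error. The medians over single nuclei with at least 1000 peak fragments were 0.439%, 0.596%, 1.27%, 1.67% and 1.62%, so that they were not higher above 100 than between 50 and 100. Median fragments per nucleus were 8110, 4886, 5704, 10084 and 13648 in this order, and their part in the result was not tested.

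**Figure D4:**
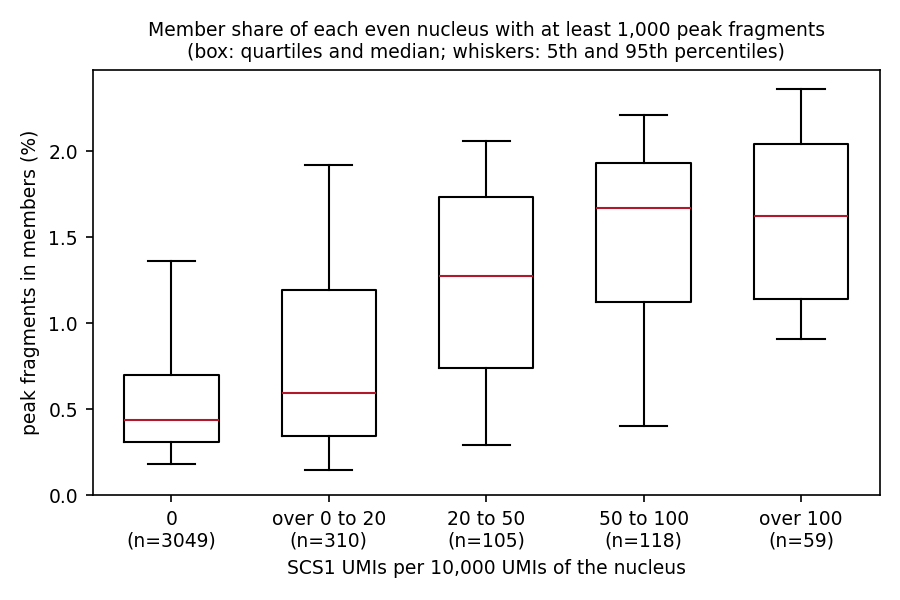
Percentage of a nucleus's peak fragments that fell in the 1000 peaks (vertical axis), for even-numbered nuclei with at least 1000 peak fragments in bins of SCS1 UMIs per 10000 (horizontal axis); boxes give quartiles and median, whiskers the 5th and 95th percentiles. The median is 0.439% in nuclei with 0 SCS1 UMIs, 0.596% up to 20, 1.27% between 20 and 50, 1.67% between 50 and 100 and 1.62% above 100.

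Single nuclei spread widely around these shares. Among nuclei with at least 1000 peak fragments, the share had a median of 1.52% in 269 SCS1-positive nuclei (5th to 95th percentile 0.399% to 2.23%) and 0.451% in 3372 other nuclei (0.180% to 1.46%). The groups overlapped: 141 of the 269 SCS1-positive nuclei (52.4%) lay above the 95th percentile of other nuclei, and 6.32% lay at or below the median of other nuclei. Of the 169 other nuclei above that percentile, 69 were SCB1-positive without SCS1 UMIs, 99 were of no gate and 1 passed more than 1 gate. None of 1157 nuclei of the embryo, endosperm, TT8 and SWEET13 gates did so, which allows a share of up to 0.259%. By SCS1 itself, 53 of 323 other nuclei with at least 1 SCS1 UMI (16.4%) and 116 of 3049 with 0 UMIs (3.80%) lay above it.

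The contrast was present at each depth. In nuclei with fewer than 3000 fragments (75 SCS1-positive, 1049 other) the shares were 1.16% and 0.502%, or 2.31-fold (2.15 to 2.48). From 3000 to below 10000 fragments they were 1.65% and 0.608% (2.72-fold), and at 10000 fragments or more 1.37% and 0.559% (2.46-fold). When each nucleus was thinned to 2000 peak fragments, leaving out 67 shallower SCS1-positive and 1010 shallower other nuclei, a median of 30 of the 1000 peaks were touched in SCS1-positive nuclei and 9 in other nuclei. Unthinned, these medians were 151 and 43. At the same thinned depth SCB1-positive nuclei without SCS1 UMIs had a median of 17, SWEET13-positive 9, embryo-gated and endosperm-gated 7 and TT8-positive 6.

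Within the SCS1-positive nuclei the pooled share was also read by the other markers. Its spread over single nuclei was not computed for these groups, and the intervals cover the counting of fragments only. The 136 nuclei with at least 1 SWEET10b UMI had 1.33% (1.31% to 1.35%) and the 182 with none 1.47% (1.45% to 1.48%), and their median fragments were 12003.5 and 9256. A lower share stood out in 41 SCS1-positive nuclei that also passed an embryo, endosperm, TT8 or SWEET13 gate: it was 0.927% (0.904% to 0.950%), against 1.504% (1.49% to 1.52%) in the 277 that passed none. These 41 nuclei had a median of 6167 UMIs, against 3281 in the 277, and no doublets were removed; the part of either in the lower share was not tested. Without them, and without the other nuclei that passed more than 1 gate, the pooled fold was 2.62 (2.59 to 2.65) and 734 peaks reached a ratio of 2.

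Fragments outside nuclei give the background of the library. In barcodes that were not called as nuclei, 12189404 fragments were listed, of which 58.1% touched a peak, and 0.459% (0.454% to 0.464%) of their peak fragments lay in the set. This was below the share of other nuclei, 0.566%, and above those of the TT8, embryo and endosperm gates.

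The peaks were spread over the genome. All 20 chromosomes held some, between 24 on chromosome 17 and 71 on chromosome 13, and 1 peak lay on a scaffold. As a share of the peaks that could be chosen, which was 1.29% over the genome, chromosome 16 had the most, 65 of 2881 (2.26%), and chromosome 17 the fewest, 24 of 3834 (0.626%). Along the chromosomes, 25.1% of members lay within 0.5 of the way from the middle to an end, 41.5% between 0.5 and 0.8 and 33.3% beyond 0.8, with each chromosome taken to end at its last fragment, against 24.0%, 38.5% and 37.5% of all peaks that could be chosen. The position along a chromosome thus differed little from that of other peaks.

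Most members lay far from the next one, with a median gap of 184538 bases, but 136 (13.6%) had another within 10 kb and 367 (36.7%) within 100 kb. In 65 cases a pair of neighboring peaks were both members, where members were 1.29% of the peaks that could be chosen. The spacing expected of as many peaks placed without regard to their ratio was not computed. Peaks outside the set but 1 to 5 kb from a member had a median even ratio of 1.09, and 3.67% of these 1117 peaks reached 2. At 5 to 20 kb the median was 1.013 and 1.98% reached 2, and at 20 to 100 kb the values were 0.976 and 1.35%. The median ratio of peaks outside the set was thus slightly higher near members, and a ratio of 2 was more frequent there. Neighbors with a high odd ratio had been taken as members, so these values cannot tell opening of single peaks from that of wider stretches.

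At least 4 members within at most 100 kb were found in 7 stretches, which held 30 members in all. The folds given for stretches pool their members alone and leave out the other peaks that could be chosen there. The stretch with the highest such fold was chr6:1666415-1689692. There 4 of 7 peaks that could be chosen were members, and the pooled fold of these members was 4.16 (3.72 to 4.65). Its members P0393, P0993, P0034 and P0004 stood at 13.8, 13.01, 60.8 and 27.6 FPM in SCS1-positive nuclei and 3.77, 2.60, 16.4 and 4.91 in other nuclei. In SCB1-positive nuclei without SCS1 UMIs the same peaks stood at 5.78, 3.37, 24.6 and 6.26, all closer to other nuclei than to SCS1-positive nuclei.

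On chromosome 1, 4 of 5 peaks between 8968815 and 9060339 were members, and the pooled fold of these members was 3.92 (3.45 to 4.43). P0047 (chr1:9011462-9014725) and P0015 lay next to each other there, at 41.4 against 12.3 and 28.4 against 4.23 FPM. P0015 was nearly closed in nuclei gated by embryo markers, with 0.384 FPM, and stood at 7.70 in SCB1-positive nuclei and 1.71 in TT8-positive nuclei.

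At chr3:19321427-19344243 all 4 peaks that could be chosen were members (3.22-fold, 2.68 to 3.84), but one of them, P0595, stood at only 4.51 against 3.02 FPM (1.497-fold, 0.845 to 2.50). Chromosome 16 had a stretch at chr16:29344107-29420460 (5 of 7 peaks, members 2.47-fold) and one at chr16:34142711-34239558 (4 of 15, members 2.76-fold). The first held P0581, at 16.2 against 4.81 FPM, beside P0717, whose 10 and 103 fragments gave 2.66 against 2.50 FPM. On chromosome 18 the stretches were chr18:54051737-54108234 (5 of 6, members 2.76-fold) and chr18:57057002-57124437 (4 of 14, members 2.76-fold). Of the members named here, P0595 and P0717 had intervals that included no difference.

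Members were narrower than the other peaks, with a median width of 1281.5 bases against 1709 for all peaks that could be chosen, and held fewer fragments in all nuclei, with medians of 428 and 660. Ratios of peaks with fewer fragments carry more counting error, so a choice by highest ratio can itself favor such peaks. Its part in these differences was not tested. Fragment ends showed where in the peak the difference lay. Within 200 bases of the peak center, members had 2.13 ends per bin of 100 bases, per peak and 1000000 peak fragments, in SCS1-positive nuclei and 0.806 in other nuclei, a fold of 2.64. The fold was 2.46 at 200 to 1000 bases and 1.65 at 1000 to 2000 bases. Over all peaks that could be chosen the folds were 0.989, 1.00 and 1.00.

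**Figure D5:**
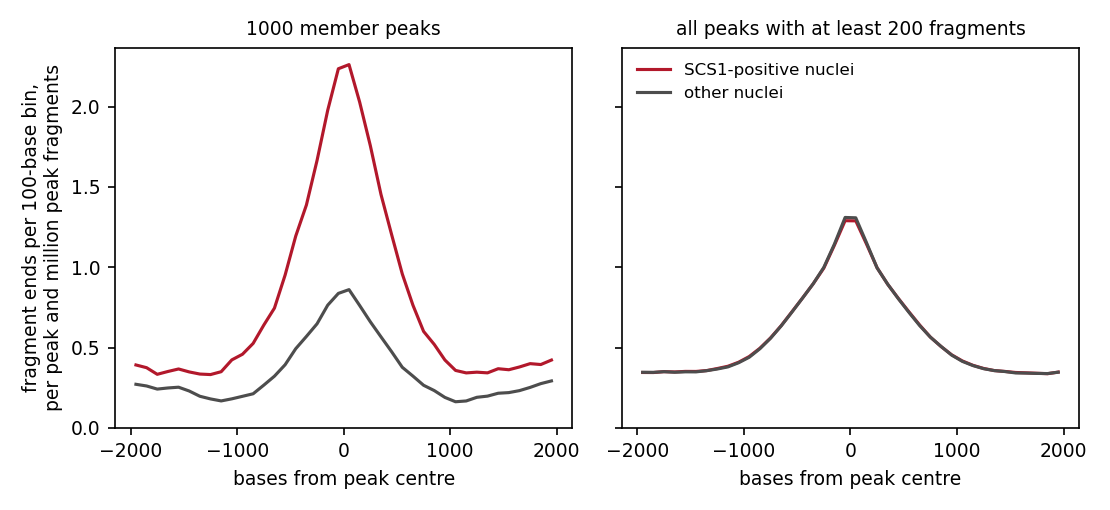
Fragment ends per 100-base bin, per peak and per 1000000 peak fragments (vertical axis), against distance from the peak center in bases, for even-numbered SCS1-positive and other nuclei. Within 200 bases of the center the 1000 peaks have 2.13 ends in SCS1-positive nuclei and 0.806 in other nuclei, whereas over all peaks that could be chosen the lines coincide.

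Fragments in members were slightly shorter in SCS1-positive nuclei. Those under 150 bases, short enough to come from DNA between nucleosomes, made up 59.5% (59.1% to 59.9%) of member fragments in SCS1-positive nuclei and 57.1% (56.9% to 57.3%) in other nuclei. Over all peaks that could be chosen the shares were 59.1% and 59.3%, so that the difference within members was not one of the whole library of fragments.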

How the data were processed

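Reads of both libraries were processed by the authors with Cell Ranger ARC 1.0 (assembly Gmax_275_Wm82.a2.v1), and free RNA was subtracted with SoupX. The submitters' processing notes also name bcl2fastq 2.20.0.422 and Seurat 4.1.1. The deposited RNA values are the corrected, otherwise unscaled UMI counts, and the deposited snATAC list gives fragments with their counts of read pairs. Peaks were called by the authors over the whole library. Of 30571536 stored RNA entries, those equal to 0 were taken as emptied by the correction.

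A fragment was assigned to each peak with which it shared at least 1 base, so that a fragment over a pair of peaks counted in both. Ratios had 1 added to both sides; folds did not. Shares and folds have exact binomial (Clopper-Pearson) 95% intervals, the fold from the split of fragments between the groups. Where a count was 0, the value it allows is that of 3 counts and is not an exact interval. RNA folds have 0.5 added where lists are counted, on genes with at least 20 UMIs. The peaks named were the 10 highest odd ratios and those at the limit of the choice; others named as extremes or in stretches were chosen after their values were seen. The peak set, gene lists and gates were chosen with earlier results of these data known. The choice and the fold interval were tested on simulated counts per peak, drawn without spread between nuclei. The assignment of fragments to peaks was not tested in this way. Doublets were not removed. Nearest genes, peaks near SCS1 and motifs, though planned, need a genome and annotation of the same assembly, which were not used here: a RefSeq gene table of another assembly matched 0 of the gene identifiers. Alternative gates, limits, scalings and weights are given in the closing section. Scripts ran in Python 3.11.15 with scipy 1.17.1, numpy 2.4.6, matplotlib 3.10.9 and pandas 2.3.3.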

Additional observations from a re-analysis of the deposited data

How the results depend on the processing

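No paired analysis was possible because there was 1 library of each kind, both of replicate 1. The planned count of nearest genes higher in RNA, with its 4 alternatives, and the motif search were not run. Under 13 other settings and 1 more added after the data were seen, no value fell below 1: the median ratio (2.22 as reported) ran between 1.42 and 2.67 and the pooled fold (2.48) between 1.47 and 2.80. The lowest values came from setting SCS1-positive nuclei against SCB1-positive nuclei without SCS1 UMIs (median 1.42, pooled 1.47, 129 peaks at a ratio of 2 in place of 674). With a gate of at least 1 SCS1 UMI the median was 1.92, the pooled fold 2.09 and the count 428. Adding 10 rather than 1 gave a median of 1.46 and a count of 35, which is close to the median level of 10.6 fragments per 1000000 in SCS1-positive nuclei. With 500 peaks the values were 2.44, 2.80 and 411 (82.2% of 500), and with 2000 peaks 2.00 and 2.19. At least 500 fragments per peak gave 1.99 and 2.10. Choosing on even and measuring on odd nuclei gave 2.16 and 2.43. Without the 1% deepest nuclei they were 2.27 and 2.52, and without nuclei that passed gates of 2 tissues 2.35 and 2.62. By the share of nuclei with a fragment they were 2.67 and 2.63. Scaling to all fragments moved the median to 2.15, and equal weight of nuclei the pooled fold to 2.51. The cause of these shifts was not tested. Counts of peaks stayed within 1.5 times of 674 in 10 of the 14. These counts were not scaled to the size of the set: that with 2000 peaks, 1001 (50.05%), was within this factor, and that with 500 peaks was not. A gate of 8 UMIs and 40 per 10000, and nuclei with at least 3000 fragments, left the 3 values within their intervals or that factor. With 1 library, spread between seeds or libraries is not measured, and a median of 40 fragments per peak in SCS1-positive nuclei limits statements on single peaks.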
